A study of Mus musculus with 3 samples.

Results

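The fibroblast growth factor (FGF) pathway was examined in the esophagus, stomach and intestine primordia of the mouse embryo, through a list of 35 of its genes, found on the array by gene symbol. They comprised 19 genes listed as ligands, 6 receptor or ligand-carrier genes and 10 feedback and target genes. The ligand list holds the intracellular homologues Fgf11, Fgf12, Fgf13 and Fgf14, which are not secreted. A probe was named for 34 of them, of 17008 genes with a named probe on the array. Fgf4 had no named probe and was not analysed here. The 34 genes were read by 52 probes. The 3 organs were dissected from embryos of ICR mice, an outbred strain, at embryonic day 11.5, counted from a vaginal plug at day 0.5. Total RNA was labelled with Cy3 and hybridised to 1-colour Agilent expression arrays, with 1 array per organ and no treatment or genetic change in any of them. The organ was taken from the tissue label, because the description of RNA extraction names stomach for each of the 3, and the labels give neither the number of embryos nor any pooling.

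FGF ligands other than the intracellular homologues are secreted proteins that bind receptor tyrosine kinases together with heparan sulphate on the cell surface. The activated receptor signals through Ras and the kinase ERK, which switches on transcription factors of the Etv group and a set of inhibitors of the same pathway, the Sprouty and Spred proteins and the ERK phosphatase Dusp6. These target genes are widely read as a record of recent FGF signalling, although other receptor tyrosine kinases use the same relay. In the developing gut and lung, ligands made in mesenchyme act on epithelium and ligands made in epithelium act on mesenchyme.

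Each organ is 1 array, so no difference has a replicate check, no test was run, and precision is limited by the number of arrays. The 3 arrays lay on 1 slide, and position on the slide and organ cannot be told apart. A level is log2 of the processed signal minus that of the array's 75th percentile, and differences between organs are differences of these levels. Levels of different genes come from different probes and cannot be set against each other. The intensity at the 75th percentile was 393 for esophagus, 334 for stomach and 1023 for intestine. Probes of the same gene differed in their differences by a median SD of 0.25 log2 units (stomach and esophagus compared), 0.46 (intestine and esophagus) and 0.31 (intestine and stomach), so a 2-fold difference (1 log2 unit) was used as the limit for counting. The labelled organs carried their markers. Barx1 read 4.43 in stomach against 0.87 in esophagus and −4.39 in intestine, and Cdx2 read 1.85 in intestine and was not well above background in esophagus, whereas Cdx1 was not well above background in intestine. Other tissues were also present. The summed level of 9 heart markers was 12840% of the 75th percentile in esophagus, 338% in stomach and 400% in intestine, and that of 7 liver markers was 1106%, 988% and 8842%. Between intestine and stomach the heart sum follows Actc1 (290% and 84%), the 1 heart marker higher in intestine, while 8 read lower there. Of 8 trachea and lung markers, 8 were well above background in esophagus and Nkx2-1, Sftpc and Tbx4 were not in stomach or intestine. Because each sample is a whole organ, fewer cells of a type and less RNA per cell cannot be told apart.

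On all 3 arrays 25 of the 34 genes were well above background, including 6 of 6 receptor and carrier genes and 9 of 10 feedback and target genes. Fgf1, Fgf7, Fgf20 and Spry4 were so on only some arrays. Fgf3, Fgf16, Fgf17, Fgf21 and Fgf22 were not well above background on any. In each comparison 28 genes entered, because at least 1 of the arrays compared measured them, and where only 1 did, the difference is a lower limit of its size. In stomach against esophagus 4 of the 28 were at least 2-fold higher (14.3%, against 4.14% of all genes) and 2 at least 2-fold lower (7.14%, against 5.7%), and 9.84% of all genes differed in either direction. In intestine against esophagus 5 were higher (17.9%, against 8.4%) and 8 lower (28.6%, against 11.5%), with 19.9% of all genes in either direction. In intestine against stomach 1 was higher (3.57%, against 4.77%) and 7 lower (25.0%, against 7.18%), with 11.9% in either direction. The median difference over the genes was 0.14, −0.08 and −0.17 log2 units in these comparisons, and that of all genes 0.15, 0.13 and −0.02. The splits depended on the scaling. After median centring, which moves the median of all genes to 0.35, 0.62 and 0.27, 8 genes were higher and 1 lower in the first comparison, where all genes gave 6.92% and 4.15%. In the second they were 8 and 5, where all genes gave 26.1% and 6.65%, so that the higher count was close to the share of all genes. In the third they were 2 and 4, against 8.78% and 4.02%. Under quantile normalization they were 6 and 1 (all genes 5.99% and 4.9%), 6 and 5 (12.8% and 9.33%) and 1 and 5 (5.99% and 4.95%).

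**Figure D1:**
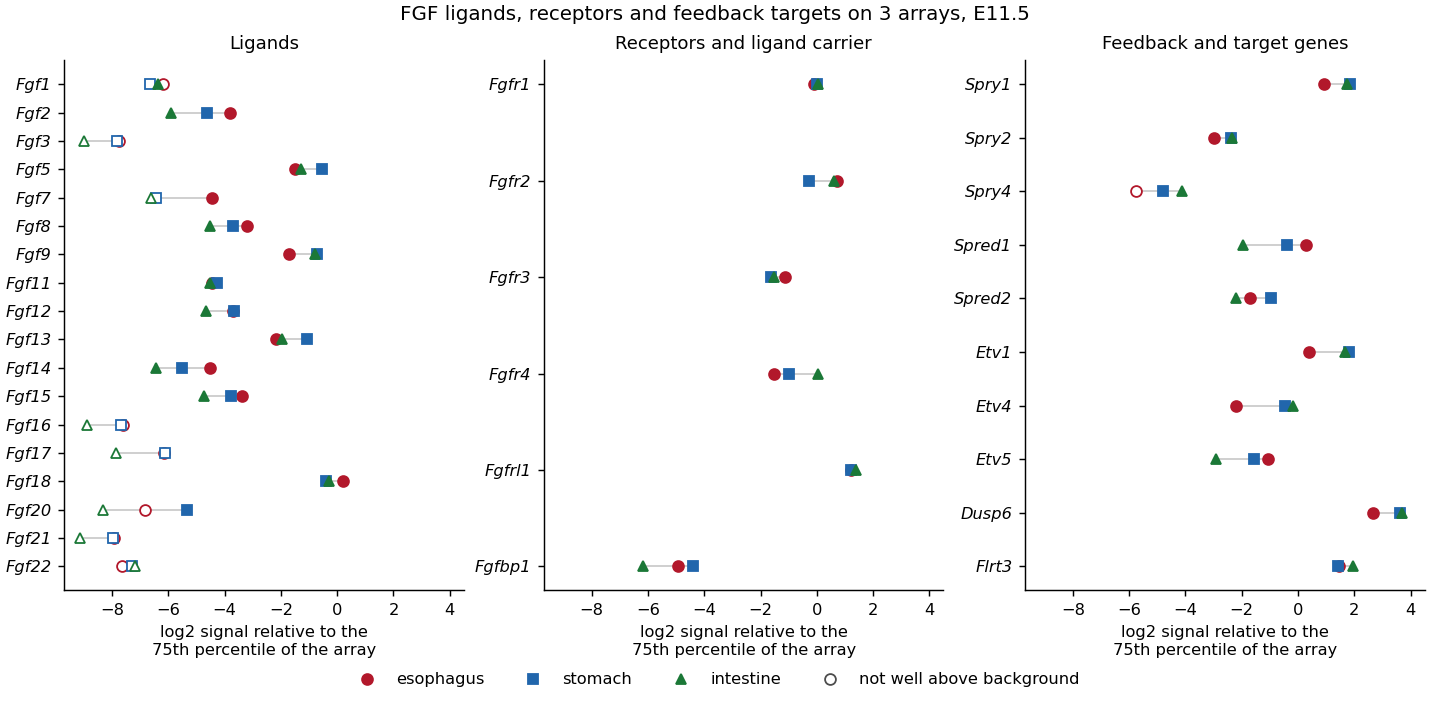
Level of each gene on the 3 arrays, as log2 signal relative to the 75th percentile of the array (x axis), for ligands, receptors with the carrier Fgfbp1, and feedback and target genes. Filled symbols are well above background and open symbols are not; Etv4 and Dusp6 have esophagus lowest, and Spred1 and Etv5 have intestine lowest.

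The feedback and target genes were not uniform along the gut. Etv1, Etv4, Dusp6, Spry1, Spry2 and Spry4 read lowest in esophagus, whereas Spred1 and, by its brighter probe only, Etv5 read highest there. Of the 10, 2 were at least 2-fold higher and 0 lower in stomach than in esophagus, where 4.14% and 5.7% of all genes were. In intestine 4 were above and 2 below esophagus (all genes 8.4% and 11.5%), and 0 were above and 3 below stomach (4.77% and 7.18%). Their median difference was 0.84, 0.74 and −0.01 log2 units.

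Etv4, an ETS transcription factor switched on by ERK, read −2.19 in esophagus, −0.45 in stomach and −0.18 in intestine. It was 3.34-fold higher in stomach and 4.02-fold above esophagus in intestine, and under 8 other ways of processing the differences lay between 1.28 and 1.95 and between 1.48 and 2.51 log2 units. Stomach and intestine lay close together, at a difference of 0.27, which is within the spread between probes of a gene. Etv1, the second factor of that group, read 0.39, 1.82 and 1.65, which put stomach 2.69-fold and intestine 2.39-fold above esophagus. Of 5 measured neuronal markers, 3 were at least 2-fold above esophagus in each of those organs and 0 were 2-fold lower. In stomach 4 read above esophagus and 1 below, and in intestine 3 read above and 2 below. The summed level of the 6 markers was 823% (esophagus), 1271% (stomach) and 1107% (intestine). The part of neurons in the value of Etv1 was not tested. Etv5, the third factor, went the other way, at −1.07 in esophagus, −1.58 in stomach and −2.92 in intestine, which is 3.59-fold below esophagus in intestine. That drop rests on the brighter probe, because the dimmer probe of Etv5 differed by 0.25 log2 units in the other direction, and the mean over both probes by −0.80.

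Dusp6, the phosphatase that inactivates ERK, read 2.67 in esophagus, 3.62 in stomach and 3.70 in intestine. Stomach was 1.94-fold and intestine 2.05-fold above esophagus, and the intestine value was 0.90 log2 units, under 2-fold, after quantile normalization. Spry1, a Sprouty inhibitor of Ras activation, read 0.92, 1.84 and 1.76, with stomach 1.90-fold and intestine 1.79-fold above esophagus. Spry2 differed less, at −2.98, −2.40 and −2.35, and its difference of 0.63 between intestine and esophagus was 0.09 after normexp background correction. Spry4 was not well above background in esophagus and read −4.79 in stomach and −4.13 in intestine by the brighter of its probes, which is at least 1.96-fold and at least 3.11-fold above esophagus. Its other probe was not well above background on any array. Between intestine and stomach the brighter probe of Spry4 differed by 0.67 log2 units, and by −0.67 after normexp correction, so no direction holds. Each of these 4 inhibitors thus read lowest in esophagus and differed by less than 2-fold between stomach and intestine.

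Spred1, an inhibitor that keeps Raf from being activated, ran against the Sprouty genes. It read 0.27 in esophagus, −0.40 in stomach and −1.96 in intestine, and was 4.70-fold below esophagus in intestine and 2.96-fold lower than in stomach. The other probe of Spred1 gave −2.11 and −1.60 for these differences. Spred2, its relative, read −1.70, −0.94 and −2.21, highest in stomach and 2.40-fold below stomach in intestine, a difference that was −0.97 log2 units after median centring. Flrt3, a membrane protein that binds FGF receptors, read 1.46, 1.42 and 1.96, and was within 2-fold between organs.

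**Figure D2:**
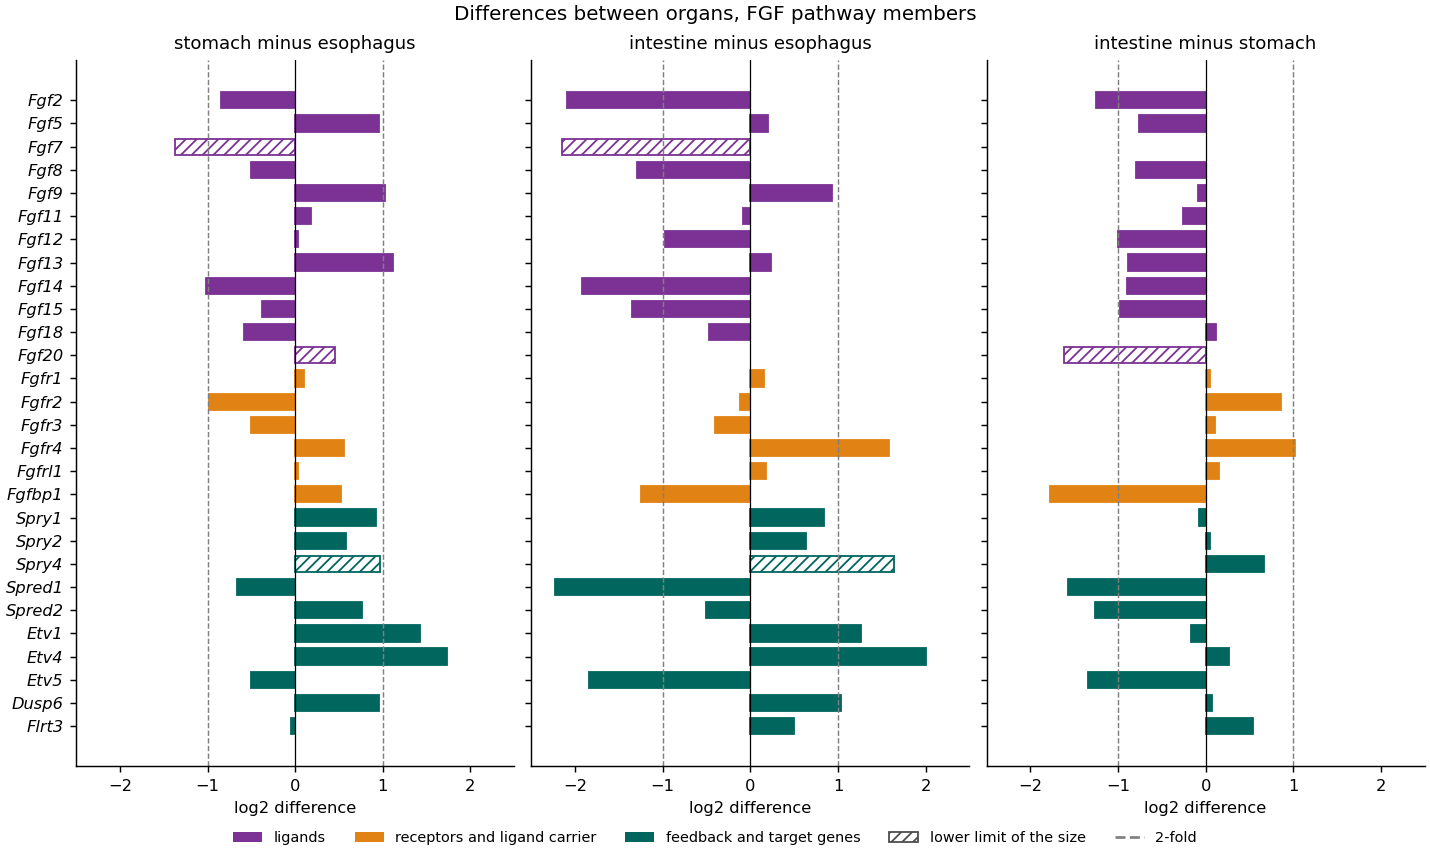
Difference in log2 signal between organs (x axis, 1 panel per comparison) for the genes with a value in at least 1 comparison. Hatched bars are lower limits of the size where 1 array was not well above background, and dashed lines mark 2-fold; Etv1 and Etv4 lie past 2-fold in the panels with esophagus and near 0 between intestine and stomach.

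Sequences upstream of 4 of these genes are shown. They set genes that read lowest in esophagus (Dusp6 and Spry1) beside genes that read highest there (Spred1 and, by its brighter probe only, Etv5). Each is the 250 bases before the annotated start, in the direction of transcription, from RefSeq on GRCm38.p6. Capitals mark GGAA, the core of the motif bound by ETS factors such as those of the Etv group, or TTCC, its reverse complement.
Dusp6, GRCm38.p6 chr10:99262981-99263230 (plus strand): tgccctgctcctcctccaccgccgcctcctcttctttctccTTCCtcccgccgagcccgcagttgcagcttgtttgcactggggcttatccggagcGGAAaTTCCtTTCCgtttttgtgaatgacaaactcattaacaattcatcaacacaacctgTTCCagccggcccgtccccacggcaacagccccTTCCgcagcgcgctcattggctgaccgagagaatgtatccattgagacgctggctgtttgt
Spry1, GRCm38.p6 chr3:37639697-37639946 (plus strand): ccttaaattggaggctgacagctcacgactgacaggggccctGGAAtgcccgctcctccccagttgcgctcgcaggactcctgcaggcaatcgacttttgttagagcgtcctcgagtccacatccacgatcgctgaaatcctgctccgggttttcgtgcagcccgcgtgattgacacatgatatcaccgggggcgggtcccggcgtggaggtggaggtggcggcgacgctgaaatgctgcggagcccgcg
Spred1, GRCm38.p6 chr2:117120821-117121070 (plus strand): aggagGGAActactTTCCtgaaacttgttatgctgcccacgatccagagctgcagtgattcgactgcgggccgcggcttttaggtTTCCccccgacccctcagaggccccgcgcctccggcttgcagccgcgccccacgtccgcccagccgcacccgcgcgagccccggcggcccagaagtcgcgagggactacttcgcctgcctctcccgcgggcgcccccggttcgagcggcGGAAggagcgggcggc
Etv5, GRCm38.p6 chr16:22439571-22439820 (minus strand): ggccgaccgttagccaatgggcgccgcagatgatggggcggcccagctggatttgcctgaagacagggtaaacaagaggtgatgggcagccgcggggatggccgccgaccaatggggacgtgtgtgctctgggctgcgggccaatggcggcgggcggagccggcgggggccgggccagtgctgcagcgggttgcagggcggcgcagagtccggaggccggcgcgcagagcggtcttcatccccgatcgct
The core was found 6 times before Dusp6, 1 time before Spry1, 4 times before Spred1 and 0 times before this start of Etv5, so its number did not separate the pairs. A second annotated start of Etv5 had 4 matches. The core was in 93.4% of 32851 windows of the same length before annotated starts of all genes, with a median of 3 matches. A longer ETS motif, CCGGAAGT, searched on both strands and containing the core, was in 0 of 10 windows of 8 feedback and target genes and in 2.88% of all windows. Of 35 windows of 26 FGF pathway genes, 1 held it, that of Fgfrl1. A match is a string of letters and not a measured site, and these windows are short.

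Of the 12 ligands that could be compared, 2 were at least 2-fold higher and 2 lower in stomach relative to esophagus (all genes 4.14% and 5.7%). In intestine 0 were above and 5 below esophagus (all genes 8.4% and 11.5%, and 21.5% below among genes with intensities under 50 on every array), and 0 were above and 3 below stomach (4.77% and 7.18%). The 12 include the intracellular homologues, which are not secreted. Fgf13 is among the 2 higher in stomach and Fgf14 among the 2 lower, each by its brightest probe. Fgf14 is also among the 5 below esophagus in intestine, and Fgf12 among the 3 below stomach. Fgf9, a ligand that epithelium and mesothelium send to mesenchyme, read −1.73 in esophagus, −0.71 in stomach and −0.80 in intestine. Stomach was 2.03-fold and intestine 1.91-fold above esophagus, or 0.71 and 0.47 log2 units after normexp correction. Esophagus was thus lowest, and intestine differed from stomach by −0.09, or by 0.21 after median centring. Of 9 epithelial markers 6 read above esophagus in stomach and 3 below, with 3 at least 2-fold higher and 0 lower. In intestine 6 read above and 3 below, with 1 at least 2-fold higher and 1 lower. Of 5 mesothelial markers 3 read above esophagus and 2 below in each organ. At least 2-fold higher were 2 of them in stomach and 1 in intestine, with 0 lower in either. The part of both tissues in the values of Fgf9 was not tested. Fgf20, a close relative of Fgf9, was well above background in stomach alone, where its intensity of 8.20 lay close to the lowest such signal of that array, 5.85. It was at least 3.07-fold above intestine in stomach and at least 1.37-fold higher than in esophagus. The lowest signal called well above background on the intestine array was 8.17. Before scaling to the 75th percentile, the stomach signal of Fgf20 and that intestine limit were therefore close. Fgf16, the other relative, was not well above background on any array.

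Fgf5, of the Fgf4 subfamily, read −1.50 in esophagus, −0.54 in stomach and −1.30 in intestine, highest in stomach by 1.94-fold over esophagus and 1.69-fold over intestine. Fgf18, a relative of Fgf8 and Fgf17, read 0.19, −0.40 and −0.28, and stomach differed from esophagus by −0.59. Its difference of −0.47 between intestine and esophagus was 0.03 after median centring. Fgf8, a ligand of early patterning centres, read −3.21, −3.71 and −4.51. Its intensity was low, at 42.4, 25.5 and 45.0, so before scaling to the 75th percentile the esophagus and intestine signals were close, and after it intestine was 2.46-fold below esophagus, or under 2-fold after median centring (−0.80) and quantile normalization (−0.77). Fgf17 was not well above background on any array.

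Fgf7, which mesenchyme makes for the epithelial form of Fgfr2, was well above background in esophagus alone, at −4.47. It was at least 2.58-fold lower in stomach and at least 4.42-fold lower in intestine. After normexp correction the stomach difference was −0.05 log2 units, and that of intestine was −1.30. Fgf10, its relative and no member of the 35, read −1.38 in esophagus, 0.19 in stomach and −1.11 in intestine, 2.99-fold above esophagus in stomach and 2.47-fold higher than in intestine. Esophagus was thus the organ with measured Fgf7, and stomach the organ with the highest Fgf10. Fgf22 and Fgf3 of the same group were not well above background on any array. Trachea and lung markers moved with Fgf7, with 6 of 8 at least 2-fold below esophagus in stomach and 7 of 8 lower in intestine. Markers of other tissues did so too. The counts were 9 of 9 in both organs for heart and 5 of 6 and 6 of 6 for esophagus and anterior foregut. For skeletal muscle they were 4 of 4 and 4 of 5 measured. In these lists 0 were at least 2-fold higher, and 5.7% and 11.5% of all genes were lower. The part of these tissues in the value of Fgf7 was not tested.

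Fgf2, a ligand stored in extracellular matrix, read −3.79 in esophagus, −4.64 in stomach and −5.89 in intestine. It was 4.28-fold lower in intestine and 1.80-fold below esophagus in stomach, and the stomach difference of −0.85 was −0.12 after normexp correction and −1.84 as the mean over probes. A second probe of Fgf2 was well above background in esophagus and on neither of the other arrays. Fgf1 was well above background in intestine alone, at an intensity of 12.5, and its level there did not exceed the limits set by the other arrays, so no fold is given. Fgf15, the hormone-like ligand of later ileum, read −3.39, −3.77 and −4.74, or 2.55-fold below esophagus in intestine, with intensities of 37.5, 24.5 and 38.2, and the difference of −1.35 was under 2-fold after median centring (−0.85) and quantile normalization (−0.82). Fgf21, a hormone of liver, was not well above background on any array.

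Repeated spots give the error within an array for 3 genes with a probe that was printed 10 times. For Fgfr2 this is not the brighter probe that gives its level elsewhere in the text, which is 1 spot. For Fgfr2 the spots of that probe ranged from −1.59 to −1.36 in esophagus, from −2.69 to −2.44 in stomach and from −1.77 to −1.53 in intestine, and those of stomach did not overlap the others. For Fgf2 the ranges were −3.94 to −3.61, −5.03 to −4.40 and −6.43 to −5.62, again without overlap. For Fgf8 they were −3.63 to −2.45, −4.26 to −3.40 and −4.79 to −4.27, and stomach overlapped esophagus. Repeated spots of a probe generally lay close together, with a median SD of 0.103 (esophagus array), 0.0933 (stomach array) and 0.0805 (intestine array). A modest difference or a shift from scaling can therefore also leave no overlap. How many other repeated probes lacked overlap was not counted, so it cannot be read as particular to Fgfr2 and Fgf2. The scanner software had marked a spot of Fgf8 in esophagus at −0.77 as an outlier, and keeping it changed the difference from −0.50 to −0.75 for stomach against esophagus and from −1.30 to −1.54 for intestine against esophagus. These spots share 1 labelled RNA and say nothing of the spread between embryos.

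**Figure D3:**
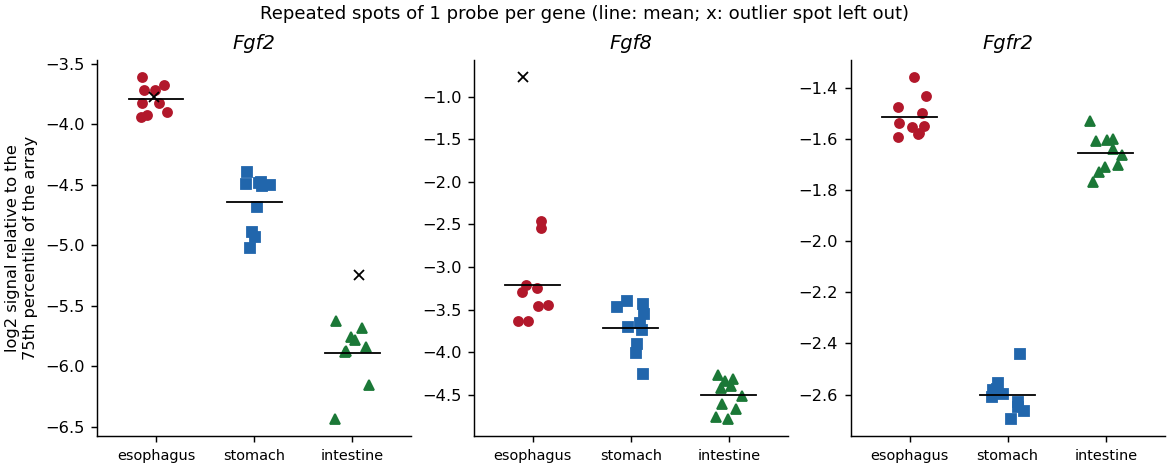
Level of each spot (y axis, log2 signal relative to the 75th percentile of the array) for the probes of Fgf2, Fgf8 and Fgfr2 that were printed 10 times, by organ. Lines are means and crosses are spots marked as outliers and left out; the Fgfr2 spots of stomach lie below those of both other organs.

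Of the genes below esophagus in intestine, most were dim. Of the 8 genes at least 2-fold below esophagus in intestine, Fgf2, Fgf7, Fgf8, Fgf14, Fgf15 and Fgfbp1 had intensities under 50 on every array, and Spred1 and Etv5 did not. That limit was set after the values were seen. Under the limit 6 of 9 FGF pathway genes (66.7%) were at least 2-fold below esophagus in intestine, against 21.5% of all 2163 such genes, and 9.75% of the 12306 genes at or over it were. Genes that were not well above background on any array had a median difference of −1.13 log2 units in intestine against each other organ (2492 genes), and Fgf3, Fgf16, Fgf17 and Fgf21, which carry no measured signal, read between −1.73 and −1.19 for intestine against esophagus, while Fgf22, also without measured signal, read 0.46. Among the genes at or over the limit, 5 of 19 were at least 2-fold above esophagus in intestine (26.3%, against 9.26% of all such genes) and 2 of 19 lower (against 9.75%).

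**Figure D4:**
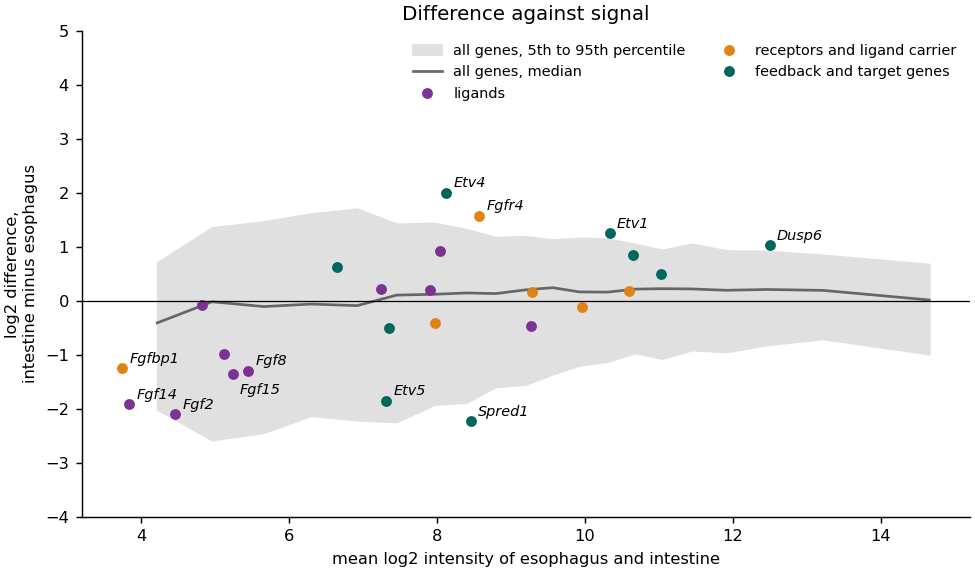
Difference between intestine and esophagus (y axis, log2) against the mean log2 intensity of both arrays (x axis), for FGF pathway genes well above background on both. The grey band and line give the 5th to 95th percentile and the median of all genes in 20 bins of signal; Etv4, Fgfr4, Etv1 and Dusp6 lie above the band, and Spred1 lies below it.

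The intracellular FGF homologues, which are not secreted and bind sodium channels in neurons and muscle, did not move together. Fgf13 read −2.19 in esophagus, −1.07 in stomach and −1.96 in intestine, 2.17-fold above esophagus in stomach, and its other probes gave 0.66 and 0.76 log2 units there. For intestine against esophagus the 3 probes of Fgf13 ranged from −1.21 to 0.38, so no direction holds. Fgf12 read −3.69, −3.67 and −4.67, and intestine lay at the 2-fold limit below stomach, a difference that was −0.71 after median centring and −1.50 as the mean over probes. The second probe of Fgf12 differed by −2.22 from esophagus in intestine. Fgf14 read −4.51, −5.53 and −6.43, and its difference of −1.02 between stomach and esophagus was 0.013 after normexp correction. Another probe of Fgf14, well above background in stomach alone, differed by 0.52 log2 units in the other direction. The mean over probes differed by −0.25, so no direction holds between stomach and esophagus. Fgf11 read −4.44, −4.27 and −4.53 and was within 2-fold in each comparison.

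By the probe used for each gene, Fgfr4 was the receptor that differed most between organs. It read −1.53 in esophagus, −0.98 in stomach and 0.05 in intestine. It was 2.99-fold above esophagus and 2.04-fold above stomach in intestine, while stomach was 1.47-fold above esophagus. After normexp correction the difference between intestine and stomach was 0.81 log2 units. Klb, the co-receptor with which Fgfr4 binds hormone-like FGFs in hepatocytes, read −5.51 in esophagus, was not well above background in stomach, and in intestine was 11.4-fold above esophagus and at least 3.70 log2 units above stomach. Liver markers moved with both genes, with 7 of 7 at least 2-fold above both other organs in intestine. In stomach against esophagus 4 of 6 measured liver markers were at least 2-fold lower and 1 higher, while Fgfr4 stood 0.55 log2 units higher. Intestine markers also rose in intestine, with 6 of 6 measured above esophagus, and 6 of 7 above and 1 below stomach. In stomach 5 of these 7 were above esophagus and 1 below. Of 5 pancreas markers in intestine, 3 were above and 1 below esophagus, and 2 above and 1 below stomach. The part of hepatic, intestinal or pancreatic cells in the values of Fgfr4 and Klb was not tested.

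Fgfr2, whose splice forms serve epithelium or mesenchyme, read 0.72 in esophagus, −0.27 in stomach and 0.60 in intestine. It was 1.98-fold below esophagus in stomach, and all 3 of its probes gave values from −1.08 to −0.98. For intestine against esophagus its probes gave −0.12, −0.14 and −1.89. The files do not say which splice form each probe reads. Fgfr1, the main receptor of mesenchyme, read −0.11, 0.00 and 0.05 by its brightest probe, within 2-fold in each comparison, while its other probes gave −1.14 and −1.75 for intestine against esophagus. Fgfr3 read −1.13, −1.64 and −1.53. Fgfrl1, a receptor without a kinase domain, read 1.20, 1.23 and 1.38, and its differences of at most 0.18 lay below the spread between probes of a gene. Fgfbp1, a secreted carrier that frees FGFs from matrix, read −4.94, −4.42 and −6.19, at intensities under 50 on every array. Its difference of −1.25 between intestine and esophagus was −0.74 after median centring and −0.75 after quantile normalization.

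**Figure D5:**
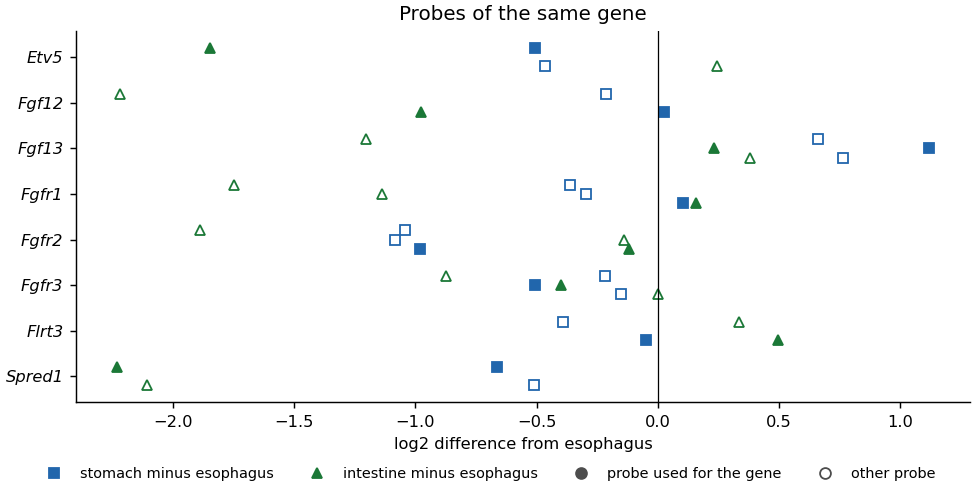
Log2 difference of stomach (squares) and intestine (triangles) from esophagus for each probe of the genes with 2 or more probes well above background on all 3 arrays. Filled symbols are the probe used for the gene; the 3 probes of Fgfr2 lie together for stomach and apart for intestine, and both probes of Spred1 lie together in each comparison.

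Other genes of the pathway were taken from further lists. Among 14 named ligands, co-receptors and inhibitors outside the 35, 4 of 11 measured were at least 2-fold higher and 1 lower in stomach than in esophagus (all genes 4.14% and 5.7%). In intestine 3 of 12 were above and 2 below esophagus (all genes 8.4% and 11.5%), and 2 of 12 were above and 2 below stomach (4.77% and 7.18%). Il17rd, a membrane inhibitor of FGF receptor signalling, read 0.94 in esophagus, 2.13 in stomach and 2.02 in intestine, 2.28-fold and 2.12-fold above esophagus. Dusp4, a nuclear ERK phosphatase, was 1.89-fold and 1.97-fold above esophagus. Dusp9, another ERK phosphatase, read −0.13, 1.14 and 2.36, 5.61-fold above esophagus in intestine. Dusp7 (4.01, 3.27 and 3.08) and Flrt2 (−0.35, −1.79 and −2.16) read highest in esophagus. Esophagus was therefore lowest for Il17rd, Dusp4 and Dusp9 and highest for Dusp7 and Flrt2.

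Of 22 Ras and ERK relay genes, which link receptor and nucleus, 0 were at least 2-fold apart between stomach and esophagus, where 9.84% of all genes were. In intestine 2 were above and 3 below esophagus, near the 8.4% and 11.5% of all genes, and 2 were above and 0 below stomach (all genes 4.77% and 7.18%). Relative to esophagus, Map2k1, which encodes the kinase MEK1, was among the higher genes at 1.83 log2 units, and Braf (−1.33) and Sos1 (−1.10) were among the lower. Of 18 genes of heparan sulphate, 1 was higher and 3 lower in intestine than in esophagus, near the 8.4% and 11.5% of all genes. Sulf1, which removes sulphate groups from heparan sulphate, differed from esophagus by −1.26 in stomach and by −2.88 in intestine. Of 12 measured early response genes of ERK signalling, 2 were at least 2-fold above esophagus in stomach (all genes 4.14%), Jun at 1.11 and Fosb at a lower limit of 1.32. In intestine against esophagus 1 was higher, Fosb at a lower limit of 1.59, and 1 lower, Egr2 at −1.17 (all genes 8.4% and 11.5%), while Egr1, a commonly used readout of ERK activity, stood at −0.01 in stomach and −0.91 in intestine relative to esophagus.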

How the data were processed

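The authors deposited 1 Agilent Feature Extraction 10.5.1.1 file per organ, whose processed signal is an intensity after background subtraction and detrending within the array, per the file headers, with no scaling between arrays. The deposited value table holds log2 signals, with medians of −2.97 (esophagus), −3.17 (stomach) and −3.47 (intestine). Compared with the scanner values it was a log2 signal shifted by a constant per array and not centred per gene, with 99.8% to 99.9% of probes within 0.01 log2 units after the shift was removed.

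Of 43379 spots that were not controls, those marked as outliers were left out (70 to 111 per array), and 0 were saturated. Levels are log2 of the processed signal less the 75th percentile of each array, and spots of 1 probe were averaged, which gave 41112 probes. The files hold no gene name column, so accessions, without versions, were matched to RefSeq (GRCm38.p6), which named 24354 probes. Each gene was read from its brightest probe by mean level. Where 1 array was dim, its value was replaced by the lowest signal called well above background on that array, or by the probe's own signal if higher.

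The genes and lists were chosen with earlier results of these data known, and members or genes of fixed lists could be named. Alternatives were median centring, quantile normalization and normexp (limma 3.58.1, offset 50, on median signals because the mean signal column was not in the files used here), other filters on dim probes, the mean over probes, the deposited table and outlier spots kept. The counting steps were tested on simulated data, with set differences given to bright genes and the same background calls on every array. The rule for lower limits was therefore not tested. Some genes of the relay list are not reported by name here.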

Additional observations from a re-analysis of the deposited data

How the results depend on the processing

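The counts of FGF pathway genes at least 2-fold apart moved with the scaling, the background correction and the filter on dim probes, and so did the share of all genes. After median centring 8 genes were higher and 1 lower in stomach against esophagus (all genes 6.92% and 4.15%), 8 higher and 5 lower in intestine against esophagus (26.1% and 6.65%), and 2 higher and 4 lower in intestine against stomach (8.78% and 4.02%), and the median for intestine against esophagus was 0.42. Quantile normalization gave 1 lower gene in stomach against esophagus (all genes 4.9%) and 5 lower in intestine against esophagus (9.33%). After normexp correction 2 were higher and 0 lower in stomach against esophagus (all genes 1.2% and 1.99%), 0 were higher in intestine against stomach (1.87%), the median there was −0.67, and Fgf14 stood at 0.013 for stomach against esophagus. Without the filter on dim probes 13 were lower in intestine against esophagus (all genes 18.2%) and 11 in intestine against stomach (14.9%). With signal above background on both arrays 1 was lower in stomach against esophagus (4.74%). The cause was not tested, except that the filters change which genes enter. Of 649 values of single genes under these alternatives 573 moved by less than the spread between probes of a gene, 75 moved by more, and 1 changed sign from a 2-fold difference. That total includes settings that change few single values. All stayed within the spread for the deposited table (82), outlier spots kept (82) and signal on both arrays (76), and 79 did without the dim filter. Median centring moved 27 and left 55, and normexp moved 22, reversed 1 and left 58. The mean over probes moved 14 and left 68, and quantile normalization moved 9 and left 73. Signal near background limits Fgf1, Fgf2, Fgf7, Fgf8, Fgf11, Fgf12, Fgf14, Fgf15, Fgf20, Fgfbp1 and Spry4. No paired analysis was possible because each organ has 1 array, and no replicate could be left out.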
